A study of Oryctolagus cuniculus with 6 samples.

Results

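Retinoic acid genes were followed in RNA sequencing of rabbit retina, in 3 normal samples and 3 samples from a rabbit model of proliferative vitreoretinopathy (PVR), a scarring disease that follows retinal detachment or injury. The genes are those of retinoic acid synthesis (ALDH1A1, ALDH1A2 and ALDH1A3), of its breakdown (CYP26A1 and CYP26B1), of its nuclear receptors (RARA, RARB, RXRA and RXRG), and RARRES2, a retinoid-responsive gene. Of these 10 genes, 9 were found among the 28788 genes of the files. ALDH1A1, ALDH1A2, ALDH1A3, RARA, RARB, RXRG and RARRES2 are listed by symbol, whereas CYP26A1 and CYP26B1 are listed by their gene identifiers, LOC100346910 and LOC100341926. RXRA was matched to no row and is not analysed here. The other genes were chosen by their roles, with earlier results of these data known. RARRES2 was selected on its higher level in PVR in these same 6 samples, so its difference is described here without a test.

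To make the model, adult rabbits had the sclera punctured, part of the vitreous body drawn off and platelet-rich plasma injected in its place. The normal retinas are labelled only as normal, and no operation on them is described. The strain, the time after the injection and the region of retina taken are not given in the sources used here. The labels do not say whether the 3 samples of a group are separate animals, so p-values measure only the spread between these samples, which may be technical. The counted reads ranged from 31904593 to 43035080 per sample.

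Retinoic acid is a small lipid hormone made from vitamin A. Retinol is oxidised to retinaldehyde, ALDH1A dehydrogenases convert retinaldehyde to retinoic acid, and CYP26 cytochromes degrade it, while RAR receptors, paired with RXR receptors on DNA, change transcription when they bind it. In the developing retina ALDH1A1 marks the dorsal side and ALDH1A3 the ventral side, with CYP26 enzymes between them. RARRES2 encodes chemerin, a secreted precursor that proteases cut into an attractant for cells bearing the receptor CMKLR1.

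Levels are given as FPKM, the count of a gene scaled by its length and by the total of the sample, so that different genes can be compared. In the normal retinas ALDH1A1 had the highest FPKM of the 9 genes, 42.1 ± 21.8 (SD, n = 3), and its range lay above that of every other member. RARB followed with 18.0 ± 1.90 (SD, n = 3), ALDH1A3 with 13.8 ± 4.69 (SD, n = 3) and RARA with 11.3 ± 0.926 (SD, n = 3). The ranges of RARB and ALDH1A3 overlapped, as did those of ALDH1A3 and RARA, so these neighbours did not differ beyond their spread. RXRG had an FPKM of 7.27 ± 1.43 (SD, n = 3) and RARRES2 one of 6.94 ± 2.11 (SD, n = 3), again with overlapping ranges. CYP26A1 and CYP26B1 were low, at 1.70 ± 0.968 and 1.31 ± 0.476 (SD, n = 3 each), and overlapped as well. ALDH1A2 was lowest at 0.141 ± 0.0976 (SD, n = 3), below the range of every other member. In PVR the order by mean FPKM differed in that RARRES2 stood at position 3, within the range of RARB, and that CYP26B1 stood above CYP26A1.

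**Figure D1:**
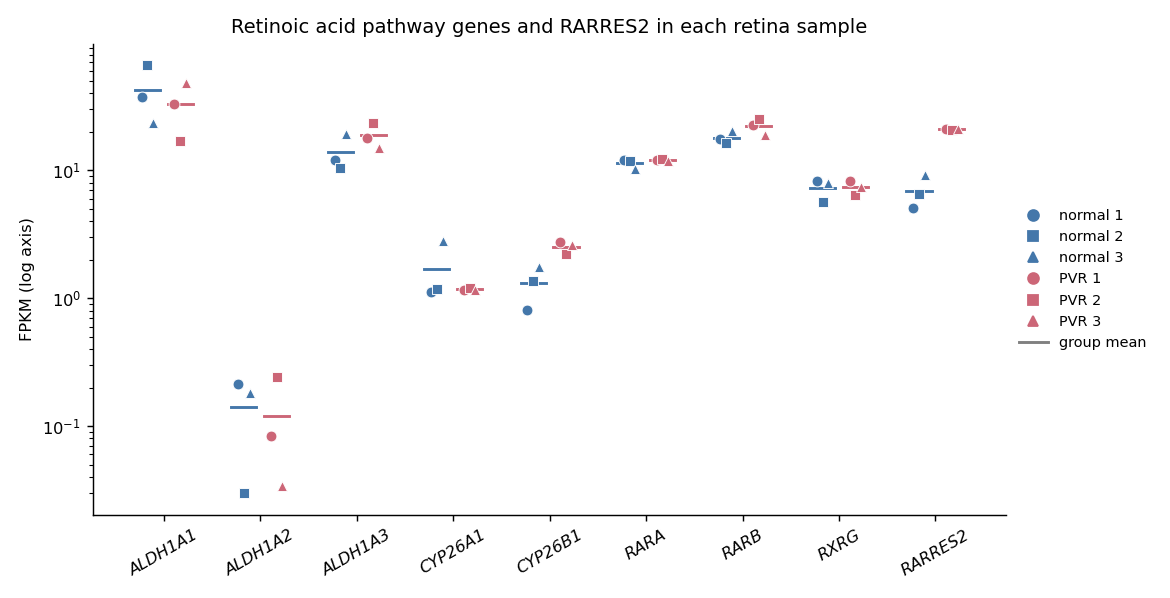
FPKM on a log axis for the 9 genes found, with 3 normal samples in blue, 3 PVR samples in red, a symbol shape per sample number and a bar at each group mean. RARRES2 and CYP26B1 have all PVR samples above all normal samples, while the groups overlap for the other 7 genes.

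The comparison of PVR with normal retinas addressed which genes of the pathway differ in the disease model. The counts were tested with edgeR's quasi-likelihood method on the 18697 genes left by its low-count filter, with Benjamini-Hochberg adjustment over all of them. A gene was called when its adjusted p was under 0.05 and its log2 fold change was beyond 1 in size. Of the 8 members other than RARRES2, all of which were tested, 0 were called, against 1.01% of all genes tested (0.69% higher and 0.316% lower). CYP26B1 alone of the 8 had an unadjusted p under 0.05, as did 21.2% of all genes. DESeq2 and limma-voom likewise called 0 of the 8, and by adjusted p without the fold threshold DESeq2 passed 1, CYP26B1. Over all genes tested DESeq2 called 519 higher and 212 lower, against 129 and 59 with edgeR, so its counts below have a larger background. The median log2 fold change of the 8 genes was -0.017, against -0.0088 for all genes tested, with 4 positive and 4 negative.

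ALDH1A1, a cytosolic retinaldehyde dehydrogenase, had FPKM values of 37.1, 66.0 and 23.2 in normal retinas against 33.2, 16.8 and 48.3 in PVR retinas. The groups overlapped, and the SD within each was larger than the distance between their means (log2 fold change -0.44, SE 0.47, edgeR adjusted p = 0.615). The sign rested on normal sample 2, the highest of all, and the log2 fold change was 0.077 (edgeR adjusted p = 0.944) without it. Without PVR sample 3, the highest of its group, it was -0.84, and without PVR sample 2, the lowest, it was -0.12. Lens RNA stood apart in normal sample 2: 9 lens markers such as CRYAA and BFSP1 summed to 32732 CPM (counts scaled to the sample total) there, against 15.6 and 12.2 CPM in the other normal samples and 262 to 300.2 CPM in PVR. The part of lens RNA in the ALDH1A1 level was not tested.

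ALDH1A3, the form typical of ventral retina, had FPKM values of 11.9, 10.4 and 19.2 in normal retinas against 17.8, 23.4 and 15.0 in PVR retinas. Normal sample 3 lay inside the PVR range (log2 fold change 0.37, SE 0.24, edgeR adjusted p = 0.395). Leaving out 1 sample moved the log2 fold change between 0.19 without PVR sample 2 and 0.67 without normal sample 3. ALDH1A2, the form known from mesenchyme and embryonic tissue, had few reads, with 34, 5 and 30 in normal retinas against 11, 32 and 6 in PVR retinas. High and low samples occurred in both groups, and a difference was not detectable beyond this spread (log2 fold change -0.33, SE 0.88, edgeR adjusted p = 0.850). Its log2 fold change was 0.10 without normal sample 1, 0.12 without PVR sample 3 and -1.33 without PVR sample 2.

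The 3 synthesis enzymes together had a summed FPKM of 49.2, 76.4 and 42.6 in normal retinas against 51.1, 40.5 and 63.3 in PVR retinas. These sums overlapped. This sum and the ratios below were computed after the levels of the single genes had been seen, and are descriptions with no test. ALDH1A1 made up 75.3, 86.4 and 54.6% of the sum in normal retinas against 64.9, 41.5 and 76.3% in PVR retinas, so the share ranged widely within both groups. PVR sample 2 was the single retina with more ALDH1A3 than ALDH1A1, at an FPKM ratio of ALDH1A1 to ALDH1A3 of 0.718, whereas the other samples had ratios from 1.21 to 6.36.

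**Figure D2:**
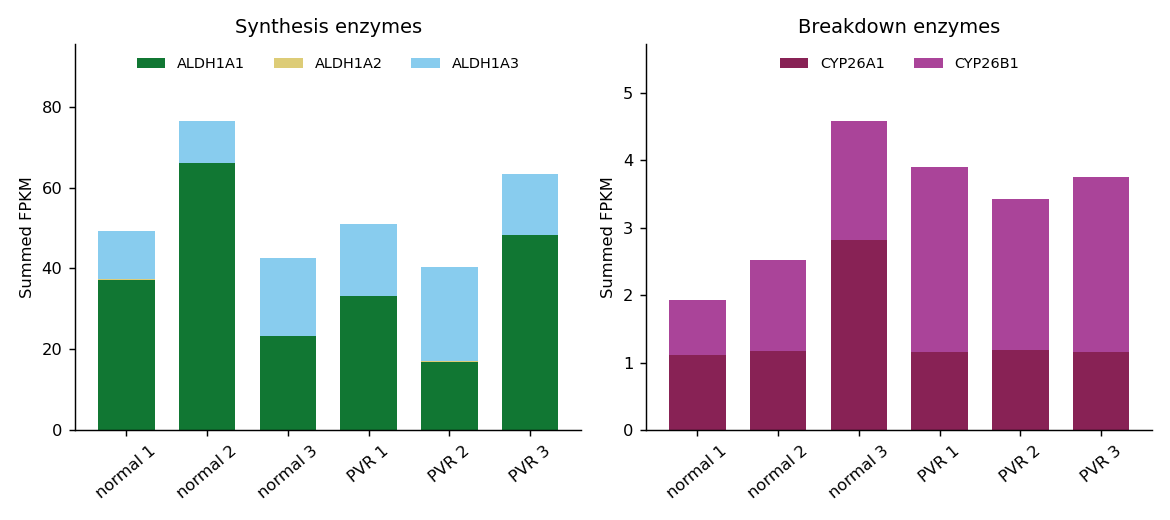
Summed FPKM in each of the 6 samples for the synthesis enzymes (left, ALDH1A1, ALDH1A2 and ALDH1A3) and the breakdown enzymes (right, CYP26A1 and CYP26B1), stacked by gene on axes that start at 0. The synthesis sums of the groups overlap, and CYP26B1 takes 65.2% to 70.4% of the breakdown sum in PVR against 38.4% to 53.5% in the normal samples.

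CYP26B1, which degrades retinoic acid, had FPKM values of 0.809, 1.35 and 1.76 in normal retinas against 2.75, 2.23 and 2.59 in PVR retinas. All 3 PVR samples exceeded all 3 normal samples, as they did for 13.4% of all genes tested. These levels rest on 145, 254 and 324 reads in normal retinas against 403, 332 and 512 in PVR retinas. The log2 fold change was 0.88 (SE 0.28, unadjusted p = 0.0146, edgeR adjusted p = 0.142), so CYP26B1 did not pass the test. Over 15 alternative analyses its log2 fold change stayed between 0.63 and 1.14. Its adjusted p ranged from 0.0285 with DESeq2, the only one of the 15 under 0.05, to 0.394 with edgeR without PVR sample 1.

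CYP26A1, a retinoic acid hydroxylase whose gene is itself induced by retinoic acid, had FPKM values of 1.11, 1.17 and 2.82 in normal retinas against 1.16, 1.19 and 1.16 in PVR retinas. Normal samples 1 and 2 were at the PVR level, and normal sample 3 stood above all others. The log2 fold change of -0.60 (SE 0.38, edgeR adjusted p = 0.388) rested on that sample and was -0.049 without it. Normal sample 3 also had the highest sum of 5 oligodendrocyte markers such as MBP. That sum was 1080.0 CPM, against 189 and 475 CPM in normal samples 1 and 2 and 99.9 to 129.8 CPM in PVR. The part of these cells in the CYP26A1 level was not tested. The FPKM ratio of CYP26B1 to CYP26A1 was 0.726, 1.15 and 0.623 in normal retinas against 2.38, 1.87 and 2.23 in PVR retinas, with no overlap. The summed FPKM of both enzymes was 1.92, 2.53 and 4.58 against 3.90, 3.42 and 3.75, with the PVR sums inside the normal range. CYP26C1, the remaining enzyme of the family (LOC100346650), had 13, 7 and 59 reads in normal retinas against 20, 20 and 67 in PVR retinas, and the groups overlapped (log2 fold change 0.47, SE 0.80, edgeR adjusted p = 0.762).

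Of the receptors, RARA had FPKM values of 12.0, 11.8 and 10.3 in normal retinas against 12.1, 12.2 and 11.8 in PVR retinas. Its levels lay close together in all 6 retinas (log2 fold change 0.016, SE 0.088, edgeR adjusted p = 0.934). RARB, whose promoter is a known target of retinoic acid, had FPKM values of 17.5, 16.4 and 20.1 in normal retinas against 22.7, 25.2 and 18.8 in PVR retinas. The highest normal sample exceeded the lowest PVR sample (log2 fold change 0.23, SE 0.11, edgeR adjusted p = 0.283). RXRG, a receptor present in cone photoreceptors, had FPKM values of 8.21, 5.63 and 7.98 in normal retinas against 8.29, 6.38 and 7.40 in PVR retinas. Both groups covered nearly the same range, and the log2 fold change of -0.049 (SE 0.18, edgeR adjusted p = 0.893) turned its sign in 5 of the 15 alternatives.

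RARG and RXRB, the related receptors that are not members, had groups that did not overlap, as was the case for 28% of all genes tested. RARG had FPKM values of 1.52, 1.75 and 1.62 in normal retinas against 2.16, 2.44 and 1.98 in PVR retinas (log2 fold change 0.36, SE 0.18, edgeR adjusted p = 0.304). RXRB had 17.8, 18.0 and 18.6 against 16.9, 15.4 and 16.8 (log2 fold change -0.22, SE 0.079, edgeR adjusted p = 0.178). RARG was the higher in PVR and RXRB the lower, and neither passed the test. RARB made up 54.8% to 62.8% of the summed RAR FPKM in normal retinas and 57.6% to 63.1% in PVR retinas.

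**Figure D3:**
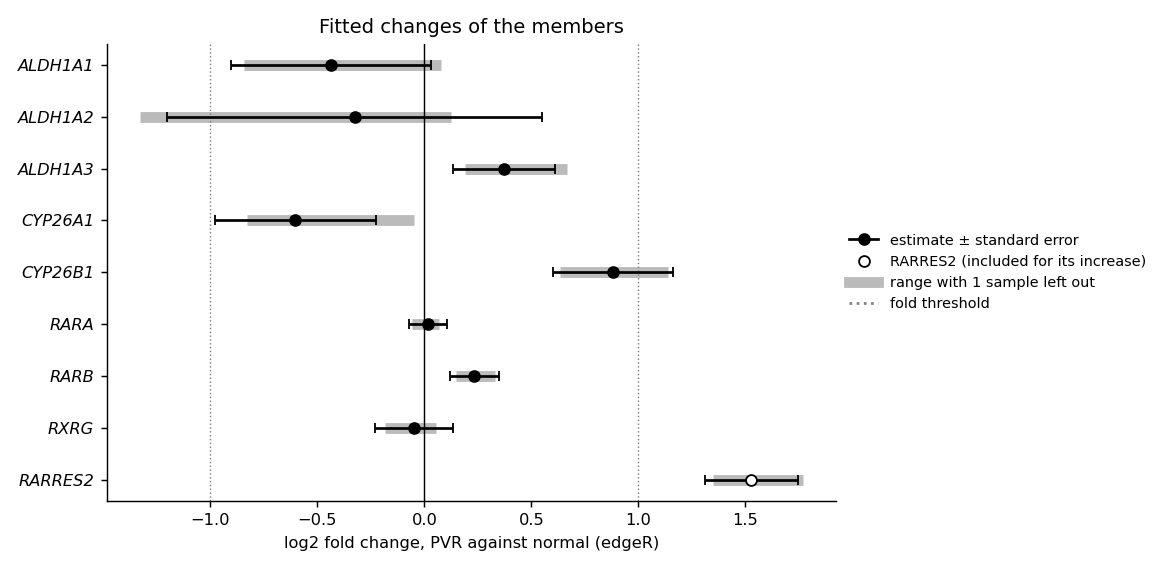
Fitted log2 fold change of PVR against normal for each of the 9 genes, with standard errors as bars, the range over the 6 fits with 1 sample left out in grey and the fold threshold dotted. RARRES2 (open point, selected on this difference, so its bar is no test) is beyond the threshold at 1.53, while the estimates of the other 8 lie between -0.60 and 0.88.

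RARRES2 had FPKM values of 5.06, 6.54 and 9.21 in normal retinas against 21.0, 20.7 and 21.1 in PVR retinas. The groups were far apart, and the PVR samples were much closer to each other than the normal samples were. The mean was 6.94 ± 2.11 (SD, n = 3) in normal retinas and 21.0 ± 0.198 (SD, n = 3) in PVR, a ratio of 3.02. These levels rest on 181, 245 and 339 reads in normal retinas against 616, 616 and 834 in PVR retinas, over a gene length of 918 bases. The log2 fold change was 1.53, a description of a gene selected on this difference. It was lowest without normal sample 1, at 1.35, and highest without normal sample 3, at 1.77, and without any 1 PVR sample it stayed between 1.51 and 1.55. These fits reuse the samples on which the gene was selected, so they are no independent support.

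Markers of other cells stood higher in PVR retinas in some lists and lower in others. The summed level of 7 leukocyte markers, among them PTPRC and ITGAM, was 19.8 to 47.6 CPM in normal retinas and 51.3 to 83.4 CPM in PVR retinas, so the groups did not overlap, and CD3E, which marks T cells, was at 0 in normal sample 3 and PVR sample 3. By edgeR and limma-voom 0 of the 7 had an adjusted p under 0.05 and by DESeq2 3 had. By edgeR 3 had an unadjusted p under 0.05, against 21.2% of all genes tested. The 6 fibroblast markers, among them COL1A1 and DCN, summed to 81.6 to 107 CPM and 105 to 309 CPM, so the groups overlapped. The log2 fold change was positive for 4 of the 6 and negative for DCN and PDGFRA (-0.29 each). By adjusted p 0 of the 6 passed with edgeR and limma-voom and 1 with DESeq2. An unadjusted p under 0.05 by edgeR was reached by 3 of the 6, again against 21.2% of all genes tested. The sums of 5 oligodendrocyte markers went the other way, at 189 to 1080.0 CPM in normal and 99.9 to 129.8 CPM in PVR retinas. With edgeR 2 of these markers, MAG and MOBP, passed an adjusted p of 0.05, while limma-voom passed 0 of the 5 and DESeq2 4. Of all genes tested, 0.615% were lower at that threshold with edgeR. Of 5 endothelial markers, VWF (log2 fold change -5.02, SE 0.55, edgeR adjusted p = 0.0119) and CDH5 (edgeR adjusted p = 0.0301, with at most 1 read in any PVR sample) fell. CLDN5 was also lower with groups apart but did not pass (edgeR adjusted p = 0.078). PECAM1 and KDR overlapped between the groups, with log2 fold changes of 0.23 and 0.17. By adjusted p under 0.05 DESeq2 passed 3 of the 5 and limma-voom 1. The sum of all 5, which is mostly KDR, overlapped as well. The leukocyte sum was highest in PVR sample 2 and the fibroblast sum in PVR sample 3. Not every marker followed its sum: CSF1R was highest in PVR sample 1 (18.7 CPM) and LUM in PVR sample 2 (77.7 CPM). The part of these cells in the RARRES2 level was not tested, and in bulk tissue more cells of a type and more RNA per cell cannot be told apart.

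Among 9515 genes with a symbol and a mean log2 CPM of at least 3, the 5 genes with the profile nearest to that of RARRES2 over the 6 samples were ADAMTS1, NFKBIZ, CD59, PRRG4 and RNASE4. Likeness was the root mean square difference of centred log2 CPM, which was 0.151 for ADAMTS1, a secreted metalloproteinase, 0.1796 for NFKBIZ, an IκB family regulator of transcription, and 0.204 for CD59, an inhibitor of complement. It was 0.211 for PRRG4 and 0.225 for RNASE4. ADAMTS1 had FPKM values of 31.0, 31.7 and 54.2 in normal retinas against 102, 98.1 and 101 in PVR retinas. As for RARRES2, normal sample 3 was the highest normal sample and the PVR samples lay close together. These genes were selected on their likeness across both conditions, so their difference between the groups is not a finding.

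Receptors and activating proteases of chemerin were examined next. Of 10 such genes found, 6 passed the low-count filter. By adjusted p under 0.05, 1 was higher and 0 were lower with edgeR, DESeq2 and limma-voom alike, against 1.09% and 0.615% of all genes with edgeR. CTSK, a cysteine protease that can cut chemerin, rose from 17.3, 14.7 and 13.4 FPKM in normal retinas to 30.3, 39.2 and 26.8 FPKM in PVR retinas (log2 fold change 1.01, SE 0.16, edgeR adjusted p = 0.0343). CTSS, another cysteine protease, did not pass (log2 fold change 0.75, SE 0.49, edgeR adjusted p = 0.412). CMKLR1, the signalling receptor of chemerin, had 92, 115 and 51 reads in normal retinas against 154, 125 and 169 in PVR retinas. It was low throughout and did not pass either (log2 fold change 0.89, SE 0.34, edgeR adjusted p = 0.195). The log2 fold change of CMKLR2, the second receptor, was -0.65 (SE 0.61, edgeR adjusted p = 0.564) and was 0.085 without normal sample 2. CCRL2, which binds chemerin without signalling (LOC100348482), had at most 15 reads in any sample and was not tested.

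Of the other genes that handle retinoids, 11 of 16 further retinoid enzymes tested and 8 of 9 retinoid carriers and uptake proteins tested had a negative log2 fold change, as did 51.1% of all genes tested. By adjusted p under 0.05 with edgeR, 0 were higher and 2 lower among the enzymes, and 0 higher and 2 lower among the carriers, against 1.09% and 0.615% of all genes. The median log2 fold changes were -0.20 and -0.86. The lower counts were 5 and 5 with DESeq2 and 0 and 1 with limma-voom, where LRAT, TTR and RDH11 did not pass, and the higher counts were 0 with both tools and at an unadjusted p under 0.05 with edgeR. LRAT, which esterifies retinol for storage, fell from 10.8, 16.5 and 3.91 FPKM in normal retinas to 1.504, 1.27 and 1.91 FPKM in PVR retinas (log2 fold change -2.82, SE 0.50, edgeR adjusted p = 0.0459). TTR, which carries retinol together with RBP4 in plasma, fell from 70.4, 117 and 56.4 FPKM to 31.8, 23.7 and 31.6 FPKM (log2 fold change -1.56, SE 0.29, edgeR adjusted p = 0.0478). Normal sample 3 was the lowest normal sample for both genes and was still above every PVR sample, a separation seen for 14.6% of all genes tested.

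RLBP1, the retinaldehyde-binding protein of Müller glia and pigment epithelium, fell from 85.6, 89.6 and 71.9 FPKM in normal retinas to 47.0, 41.6 and 51.8 FPKM in PVR retinas (log2 fold change -0.89, SE 0.13, edgeR adjusted p = 0.0294). RDH11, a retinol dehydrogenase, fell from 15.2, 15.8 and 16.7 FPKM to 11.8, 11.6 and 12.6 FPKM (log2 fold change -0.47, SE 0.084, edgeR adjusted p = 0.0457). In both genes every PVR sample was below every normal sample, as for 14.6% of all genes tested. Of the 6 Müller glia markers, which include RLBP1, GLUL (glutamine synthetase) fell as well (log2 fold change -1.11, SE 0.12, edgeR adjusted p = 0.0125). GFAP, which reactive glia express, was higher in every PVR sample than in every normal sample, as were 13.4% of all genes tested. GFAP did not pass (log2 fold change 1.39, SE 0.44, edgeR adjusted p = 0.143), and SLC1A3, VIM and AQP4 overlapped between the groups. The part of Müller glia in the RLBP1 level was not tested. RDH10, the enzyme that supplies retinaldehyde for retinoic acid synthesis, had FPKM values of 10.5, 15.4 and 7.12 in normal retinas against 6.78, 7.32 and 5.74 in PVR retinas and did not pass (log2 fold change -0.81, SE 0.28, edgeR adjusted p = 0.161). The log2 fold change of DHRS3, which reduces retinaldehyde back to retinol, was -0.25 (SE 0.23, edgeR adjusted p = 0.552).

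For STRA6, the receptor of plasma retinol-binding protein, the log2 fold change was -1.504 (SE 0.37, edgeR adjusted p = 0.0870). CRABP1, which binds retinoic acid in the cytosol, was abundant, with FPKM values of 62.7, 56.2 and 84.5 in normal retinas against 58.9, 54.3 and 57.1 in PVR retinas (log2 fold change -0.32, SE 0.14, edgeR adjusted p = 0.244). FABP5, another carrier of retinoic acid, had 27.7, 1808 and 21.4 against 36.8, 30.5 and 46.9. Normal sample 2, the one with the most lens RNA, set its log2 fold change of -4.12 (SE 1.63, edgeR adjusted p = 0.209). Without that sample it was 0.59 (edgeR adjusted p = 0.297). Lens markers were also higher in PVR (262 to 300.2 CPM) than in normal samples 1 and 3 (15.6 and 12.2 CPM). The part of lens RNA in the FABP5 level was not tested.

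Among 8 pigment epithelium markers, those that were lower in PVR with groups apart were LRAT, TTR and RPE65, which the retinoid lists also hold. Of all genes tested, 14.6% were lower with groups apart and 13.4% higher. All 8 summed to 139 to 352 CPM in normal retinas and 82.1 to 92.2 CPM in PVR retinas. With edgeR 2 of the 8, LRAT and TTR, passed an adjusted p of 0.05, against 0.615% of all genes tested that were lower. By the same threshold limma-voom passed 0 of the 8 and DESeq2 3. The 5 markers that are in no retinoid list summed to 8.83 to 13.9 CPM and 9.69 to 15.7 CPM, so these groups overlapped, and BEST1 was higher with groups apart (log2 fold change 0.53, SE 0.21, edgeR adjusted p = 0.215). The part of pigment epithelium in these levels was not tested. Over all 66 other pathway genes tested, each counted once, 1 was higher (1.52%) and 4 were lower (6.06%), against 1.09% and 0.615% of all genes tested. The lists of these genes were written by function, with earlier results of these data known. None of the 66 passed when normal sample 1, normal sample 2, PVR sample 1 or PVR sample 2 was left out, while 2 were higher and 7 lower without normal sample 3, and 2 higher and 3 lower without PVR sample 3.

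**Figure D4:**
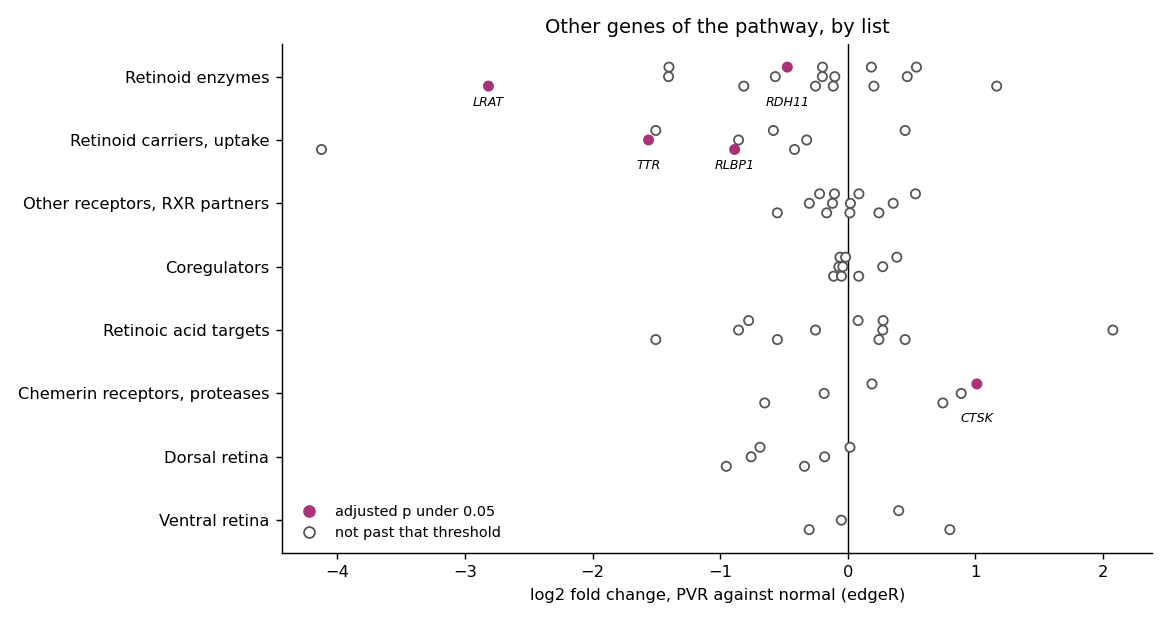
Log2 fold change of PVR against normal for every tested gene of 8 lists of the pathway, a point per gene, with filled points for an adjusted p under 0.05. The named genes are CTSK, which was higher, and LRAT, TTR, RLBP1 and RDH11, which were lower, and the leftmost point, at -4.12, is FABP5, which was 0.59 without normal sample 2.

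Downstream of the receptors, 0 of 11 tested genes known to respond to retinoic acid had an adjusted p under 0.05 with edgeR or limma-voom, while DESeq2 passed 2 higher and 2 lower. An unadjusted p under 0.05 with edgeR was reached by 3 higher and 2 lower genes, against 21.2% of all genes tested in either direction. The median log2 fold change was 0.081. ICAM1, an adhesion molecule that inflammation also induces, had 74, 93 and 11 reads in normal retinas against 207, 210 and 299 in PVR retinas. Its groups did not overlap, with PVR higher, as for 13.4% of all genes tested. ICAM1 did not pass (log2 fold change 2.08, SE 0.64, edgeR adjusted p = 0.133). For the homeobox gene MEIS1 the log2 fold change was 0.28 (SE 0.087, edgeR adjusted p = 0.140). That of TGM2, a transglutaminase, was -0.78 (SE 0.57, edgeR adjusted p = 0.456) and was 0.085 without normal sample 2.

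Of 12 further RAR and RXR receptors and RXR partners tested, 0 had an adjusted p under 0.05 with edgeR, DESeq2 or limma-voom, 1 had an unadjusted p under 0.05 with edgeR, and the median log2 fold change was -0.044. Of 9 coregulators tested, 0 passed with edgeR and limma-voom and 1, higher, with DESeq2, and the median was -0.039. An unadjusted p under 0.05 by edgeR was reached by 2 of the 9, both higher, against 21.2% of all genes tested. For NRIP1, a ligand-dependent cofactor, the log2 fold change was 0.27 (SE 0.11, edgeR adjusted p = 0.228).

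Because ALDH1A1 and ALDH1A3 differ between dorsal and ventral retina, genes of retinal position were set beside them. Of 6 dorsal genes tested, 5 had a negative log2 fold change (median -0.51), and of 4 ventral genes tested, 2 were positive and 2 negative (median 0.17). By adjusted p under 0.05, 0 of the 10 passed with edgeR and limma-voom, whereas DESeq2 passed 1 dorsal gene, lower, and 1 ventral gene, higher. With edgeR 3 of the 10 had an unadjusted p under 0.05, against 21.2% of all genes tested. TBX5, a dorsal transcription factor, had FPKM values of 1.45, 2.31 and 1.94 in normal retinas against 0.958, 0.399 and 2.15 in PVR retinas (log2 fold change -0.76, SE 0.54, edgeR adjusted p = 0.449). It was lowest in PVR sample 2 and highest in normal sample 2, the sample with the most lens RNA, as were EFNB1, EFNB2 and BMP4. TBX2 and TBX3 were also lowest in PVR sample 2 but were highest in PVR sample 3 (22.2 and 9.51 FPKM). VAX2, a ventral transcription factor, had FPKM values of 36.0, 28.3 and 28.4 in normal retinas against 44.9, 46.4 and 37.1 in PVR retinas (log2 fold change 0.40, SE 0.13, edgeR adjusted p = 0.154), and its groups were apart in FPKM but overlapped in CPM. For BMPR1B, a receptor typical of ventral retina, the log2 fold change was 0.80 (SE 0.15, edgeR adjusted p = 0.0511), just outside the threshold. The part of retinal position in the ALDH1A levels was not tested.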

How the data were processed

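Polyadenylated RNA of 3 normal and 3 PVR rabbit retinas was sequenced, and groups were read from the sample titles. Reads were aligned by the authors to the rabbit build OryCun2.0 with HISAT2, and HTSeq and fastp are named in the submitters' processing notes. The annotation release and strand setting are not given in the sources used here. The deposited counts are raw reads per gene, and the deposited FPKM are the same counts scaled by the authors for length and depth (implied gene lengths differed between samples by at most 4.24e-09, relatively). Totals were 31904593 to 43035080 counts per sample, and such depth covers counting error only.

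Counts were tested in R 4.3.3 with edgeR 4.0.16 (filterByExpr, TMM, quasi-likelihood test of the condition, Benjamini-Hochberg adjustment over 18697 genes). The standard error (SE) is the size of the log2 fold change divided by the square root of F. CPM are scaled by TMM, and overlap of groups was counted on CPM. The 15 alternatives used DESeq2 1.42.0, limma 3.58.1 (voom, or log2 of FPKM + 1 or + 0.1), 2 other sets of factors, 2 other filters, a replicate block, and the 6 omissions of a sample. In simulated counts for this comparison (18697 genes, 200 changed), edgeR recovered 149 and made 14 false calls among 163. Recovery at log2 fold changes as small as those of the members other than RARRES2 was not tested separately.

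Genes were matched by symbol, otherwise by identifier through RefSeq's table for the assembly mOryCun1.1, used for names only. The members and lists were chosen with earlier results of these data known. The text names the members, the 5 profiles nearest to RARRES2, and genes of the lists, among which those described singly were chosen after their values were seen. Values of some single genes of the lists are not reported here.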

Additional observations from a re-analysis of the deposited data

How the results depend on the processing

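Of the 8 members other than RARRES2, 0 were called by adjusted p and fold in any of the 15 alternatives. With 1 sample left out, the log2 fold change of ALDH1A1 ranged from -0.84 to 0.077, of ALDH1A2 from -1.33 to 0.12 (0.10 without normal sample 1), of RARA from -0.058 to 0.066, and of RXRG from -0.18 to 0.052 (0.014 without normal sample 3). RXRG was 0.024 on log2(FPKM + 1) and 0.028 on log2(FPKM + 0.1). FABP5 ranged from -4.69 to 0.59, CMKLR2 from -0.91 to 0.085, TGM2 from -1.11 to 0.085 and THRB from -0.12 to 0.14 (-0.029 without normal sample 1 and -0.026 without normal sample 2).

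Over all genes, 129 were higher and 59 lower by both thresholds. DESeq2 gave 519 and 212, log2(FPKM + 1) gave 68 and 19, and the replicate block gave 56 and 26, while limma-voom gave 37 lower and a minimum of 10 counts in every sample gave 31 lower. With 1 sample left out the counts ranged from 16 to 373 higher and from 6 to 159 lower. Of the other pathway genes, 1 was higher and 4 lower by adjusted p. DESeq2 gave 5 and 11, the replicate block 0 and 0, no filter 2 higher, and limma-voom, log2(FPKM + 1) and log2(FPKM + 0.1) 1 lower each. With 1 sample left out they ranged from 0 to 2 higher and from 0 to 7 lower. The cause of these differences was not tested. Samples with the same number did not deviate together (correlations -0.017, 0.058 and 0.012), so the numbers were not taken to pair the samples. ALDH1A2 had 5 to 34 reads per sample and varied widely within both groups.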

Other observations

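An opposite order of ALDH1A1 and ALDH1A3 over the retinas was noticed after the values were seen, and all 36 pairs of the 9 genes were then computed over the 6 samples on log2 CPM. None of the 36 passed the Benjamini-Hochberg adjustment. The permutations treated all 6 samples alike, whatever their condition, so a difference between the groups can enter each r. For the pair noticed first, the p-value tests a pattern that these samples had already shown. ALDH1A1 and ALDH1A3 ran in opposite directions (Pearson r = -0.921, two-sided exact permutation p = 0.0139, Spearman rho = -0.943, two-sided exact permutation p = 0.0167). Adjusted over the 36 pairs, these exact p-values were 0.167 and 0.200. Without the 2 samples farthest from the median of ALDH1A1, r was -0.716. ALDH1A3 and RARB ran in the same direction (r = 0.920, two-sided exact permutation p = 0.0111, rho = 0.943, two-sided exact permutation p = 0.0167), with the same adjusted values and an r of 0.781 without the 2 samples farthest from the median of ALDH1A3. CYP26B1 and RARRES2 had the smallest unadjusted p of the 36, but the PVR and normal samples form separate clusters in both genes, so no pooled r is given and the relation cannot be tested. With 3 samples, a group is too small for a value within it.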
